A study of Mus musculus with 6 samples.

Results

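A set of 9 genes best known from epithelia, of 15803 genes in all, was described in growth plate cartilage of mouse embryos at E18.5. The genes are Klk10, Sbsn, Slurp1, Sfn, Krt8, Krt10, Krt17, Krt18 and Krt19. They were chosen by their measured values, Klk10, Sbsn and Slurp1 for their large excess in CKO over WT and the keratins and Sfn as companions, so their differences between genotypes are given as a description, and nothing is drawn from a test of them. The genotype of the 3 CKO libraries was Col2a1-Cre;Hnrnpk fl/fl. Their Cre is driven by the Col2a1 promoter, active in chondrocytes, and removes a loxP-flanked part of Hnrnpk. The 3 WT libraries were Hnrnpk fl/fl, with the same floxed alleles and no Cre. RNA came from dissected tissue, so fewer cells of a type and less RNA per cell cannot be told apart.

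Keratins are the intermediate filament proteins of epithelial cells. Each filament is built from a type I and a type II keratin, and a type I keratin without its partner is usually degraded. Krt8 and Krt18 form the pair of simple epithelia, Krt19 is a type I keratin of simple and glandular epithelia, Krt10 marks the differentiating layers of the epidermis and Krt17 appears in skin appendages and in activated keratinocytes. Klk10 is a secreted protease of the kallikrein family, Sbsn (suprabasin) a secreted protein of the upper epidermis, Slurp1 a secreted Ly6 protein that acts on acetylcholine receptors, and Sfn (14-3-3 sigma) an adaptor protein that is also a p53 target.

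Expression was measured as CPM, reads of the gene for each 1000000 reads of the library. Whole reads were recovered from these values, 1379674, 1332542 and 1183743 in WT 1, WT 2 and WT 3 and 1454094, 1385468 and 1153871 in CKO 1, CKO 2 and CKO 3. At this low depth 1 read was worth 0.688 to 0.867 CPM, and 3 reads, the floor of detection used here, 2.06 to 2.60 CPM. Intervals and floors cover counting error only. Hnrnpk itself had 842, 955 and 944 CPM in WT 1, WT 2 and WT 3 and 759, 949.9 and 780.0 CPM in CKO 1, CKO 2 and CKO 3. Its libraries overlapped through CKO 2 (log2 difference -0.14, limma's adjusted p = 0.622), while CKO 1 and CKO 3 lay below each WT library (log2 difference -0.25 without CKO 2). Reads on the floxed part alone were not analysed here, and WT and CKO therefore name the libraries by their labels, on which each direction rests.

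The libraries of a genotype were not equally alike. On the second principal component over the 8690 genes that averaged 5 CPM or more, which held 27.8% of the variance, CKO 2 lay at -49.0 while CKO 1 and CKO 3 lay at 21.0 and 21.2. WT 3 lay at -17.4 and WT 1 and WT 2 at 11.5 and 12.8. Ratios of the 9 genes are given with and without CKO 2, where there are reads for a ratio. Markers of chondrocytes, the labelled cell type, were abundant in each library, with a summed level of 25237 to 32059 CPM in WT and 5683 to 5800 CPM in CKO over 11 genes.

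Klk10 (ENSMUSG00000030693) lies on the plus strand of chromosome 7 of GRCm38, from 43781035 to 43785410. It had 27.5, 23.3 and 27.9 CPM in WT 1, WT 2 and WT 3 and 289, 830.0 and 291 CPM in CKO 1, CKO 2 and CKO 3. Each CKO library lay above each WT library, CKO 2 was the highest, and the WT libraries lay close together. WT libraries averaged 26.2 ± 2.57 CPM and CKO libraries 470.0 ± 312 CPM (mean ± SD, n = 3 each). From 102 reads in WT and 1906 in CKO, the ratio of CKO to WT was 18.2 (95% counting interval 14.9 to 22.5), and 11.1 (8.99 to 13.8) without CKO 2. The difference on the log2(CPM + 1) scale, which understates the change of low genes, was 3.93 and 3.42 without CKO 2.

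Sbsn (ENSMUSG00000046056; chromosome 7, 30751471 to 30756134, plus strand) had 2.90, 1.5 and 3.38 CPM in WT 1, WT 2 and WT 3 and 83.9, 16.6 and 72.8 CPM in CKO 1, CKO 2 and CKO 3. Here too the genotypes did not overlap, but CKO 2 was the lowest CKO library. The WT values rest on 10 reads in all. WT libraries averaged 2.59 ± 0.976 CPM and CKO libraries 57.8 ± 36.1 CPM (mean ± SD, n = 3 each). The ratio of CKO to WT was 22.3 (95% counting interval 11.9 to 47.2) and without CKO 2 it was 30.8 (16.4 to 65.1), with log2 differences of 3.78 and 4.50.

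Slurp1 (ENSMUSG00000022596; chromosome 15, 74724318 to 74728034, minus strand) had 0, 1 and 1 reads in WT 1, WT 2 and WT 3 and 50, 19 and 27 reads in CKO 1, CKO 2 and CKO 3. These reads correspond to 0, 0.750 and 0.845 CPM in WT and 34.4, 13.7 and 23.4 CPM in CKO. Slurp1 was under the floor in each WT library and above it in each CKO library, with CKO 2 again the lowest of them. The ratio of CKO to WT was 46.8, with a wide 95% counting interval of 12.6 to 392 because it rests on 2 WT reads, and 57.5 (15.4 to 483) without CKO 2. By log2 difference (3.98) Slurp1 ranked first of the 12155 genes tested (mean over all libraries 1 CPM or more), with Klk10 at rank 2 and Sbsn at rank 5. This order depended on the libraries used. Without CKO 2 Sbsn (4.50) lay above Slurp1 (4.31), and without CKO 1 Klk10 (4.18) lay above Slurp1 (3.68).

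A RefSeq promoter (GRCm38.p6) was matched for 6 of the 9 genes and not for Slurp1, Krt17 and Krt19. Promoter sequence is shown for Klk10 and Sbsn, which had the largest log2 differences of those 6, and for Krt10, whose libraries overlapped. The 250 bases before the RefSeq start were searched on both strands. The letters searched were TATAAA for the TATA box. For AP-1 the letters were TGANTCA. For the GC box they were GGGCGG. For the CACC box they were GGGTGG. The stretches shown are chr7:43780915-43781034 (plus strand) for Klk10, chr7:30751351-30751470 (plus strand) for Sbsn and chr11:99389365-99389484 (minus strand) for Krt10. Each ends at the base before the annotated gene, and capitals mark motif matches.
Klk10: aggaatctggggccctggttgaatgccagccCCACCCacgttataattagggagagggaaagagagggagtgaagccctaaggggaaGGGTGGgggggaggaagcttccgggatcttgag
Sbsn: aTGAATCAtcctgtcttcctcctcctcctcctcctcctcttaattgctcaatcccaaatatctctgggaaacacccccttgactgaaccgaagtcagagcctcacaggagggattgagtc
Krt10: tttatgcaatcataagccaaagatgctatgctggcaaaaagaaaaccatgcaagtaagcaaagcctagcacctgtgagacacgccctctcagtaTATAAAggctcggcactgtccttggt
Klk10 held a pair of CACC box matches, at -108 and -52 from its RefSeq start. Sbsn held an AP-1 match at -119 and a CACC box at -168, and Krt10 a TATA box at -26 and a CACC box at -214. Of 32851 RefSeq promoters, 12.4% held the TATA box letters, 6.75% the AP-1 letters, 32.7% the GC box letters and 28.1% the CACC box letters. No listed motif was found in the windows of Sfn and Krt18, and Krt8 held a pair of CACC box matches. A match describes the letters and does not show binding.

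**Figure D1:**
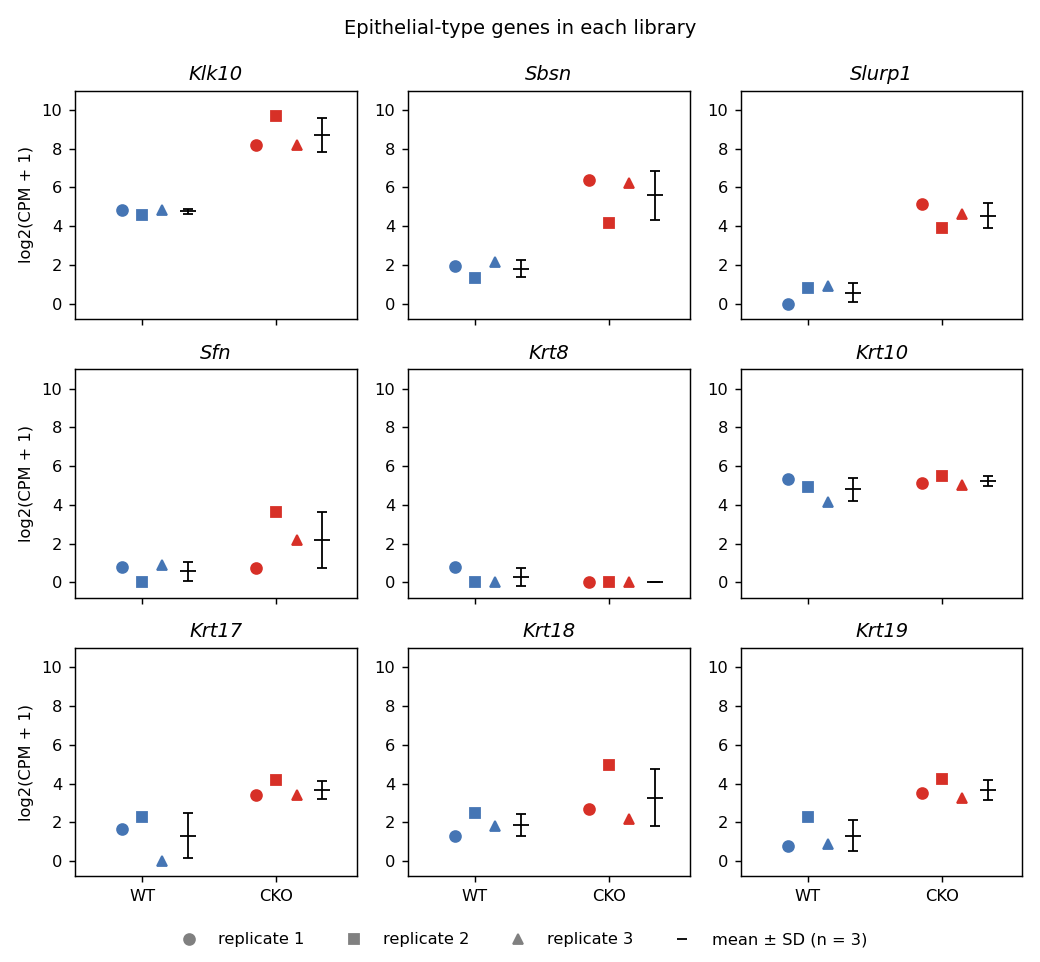
Level of each of the 9 genes as log2(CPM + 1) in the 3 WT (blue) and 3 CKO (red) libraries, with the shape giving the replicate and the bar the mean ± SD. Klk10 reaches 830.0 CPM in CKO 2, where Sbsn and Slurp1 have their lowest CKO values, and Krt8 has 1 read in all libraries.

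Sfn (ENSMUSG00000047281; chromosome 4, 133600556 to 133602168, minus strand) had 1, 0 and 1 reads in WT 1, WT 2 and WT 3 and 1, 16 and 4 reads in CKO 1, CKO 2 and CKO 3. CKO 1 lay within the WT range, and CKO 2 held 16 of the 21 CKO reads. The ratio of CKO to WT was 10.2 (95% counting interval 2.5 to 90.1), and without CKO 2 it was 3.73 with an interval (0.611 to 39.2) that includes 1. An excess of Sfn outside CKO 2 was thus not detectable at this depth.

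Among the keratins, Krt17 and Krt19 were higher in each CKO library than in each WT library. Krt17 (ENSMUSG00000035557; chromosome 11, 100256217 to 100261029, minus strand) had 2.17, 3.75 and 0 CPM in WT 1, WT 2 and WT 3 and 9.63, 17.3 and 9.53 CPM in CKO 1, CKO 2 and CKO 3. From 8 and 49 reads, its ratio was 5.98 (95% counting interval 2.81 to 14.6) and 4.67 (2.04 to 12.0) without CKO 2. The log2 difference of Krt17 was 2.36, and 1.71 without WT 3. Krt19 (ENSMUSG00000020911; chromosome 11, 100140810 to 100148665, minus strand) had 0.725, 3.75 and 0.845 CPM in WT 1, WT 2 and WT 3 and 10.3, 18 and 8.67 CPM in CKO 1, CKO 2 and CKO 3. Both genes were highest in CKO 2 and, within WT, in WT 2. The ratio of Krt19, from 7 and 50 reads, was 6.97 (3.14 to 18.2) and 5.34 (2.24 to 14.6) without CKO 2.

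Krt18, Krt10 and Krt8 did not separate the genotypes. Krt18 (ENSMUSG00000023043; chromosome 15, 102028180 to 102032027, plus strand) had 1.45, 4.50 and 2.53 CPM in WT 1, WT 2 and WT 3 and 5.50, 29.6 and 3.47 CPM in CKO 1, CKO 2 and CKO 3. CKO 3 lay within the WT range and CKO 2 held 41 of the 53 CKO reads. Its ratio of 4.70 (95% counting interval 2.43 to 9.98) became 1.63 (0.658 to 4.08) without CKO 2. Krt10 (ENSMUSG00000019761; chromosome 11, 99385254 to 99389364, minus strand) had 39.1, 29.3 and 16.9 CPM in WT 1, WT 2 and WT 3 and 34.4, 44.0 and 31.2 CPM in CKO 1, CKO 2 and CKO 3. WT 1 lay above CKO 1 and CKO 3, and the ratio was 1.27 (0.986 to 1.64), and 1.14 (0.849 to 1.52) without CKO 2. The log2 difference of Krt10 was 0.41, and 0.09 without WT 3, the lowest library. Krt8 (ENSMUSG00000049382; chromosome 15, 101996698 to 102004482, minus strand) had 1 read in WT 1 and 0 reads in the other 5 libraries, so it was not tested and no fold is given. The description of the set as rising in CKO thus does not hold for Krt8, and for Sfn, Krt10 and Krt18 the libraries overlapped.

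Of the 9 genes, 8 passed the filter on low values, and limma called 5 of these higher in CKO, where 3.18% of all genes tested were called higher. The same 5, Klk10, Sbsn, Slurp1, Krt17 and Krt19, had each CKO library above each WT library, as did 14.5% of all genes tested. Because the genes were selected on this contrast, nothing is read from these counts.

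**Figure D2:**
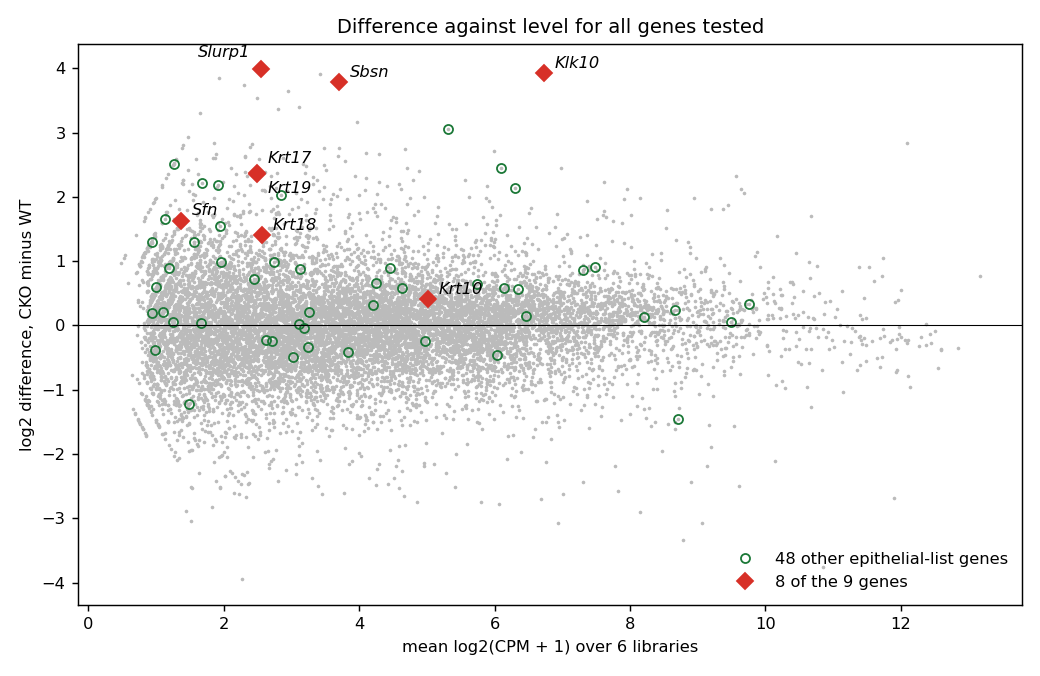
Log2 difference of CPM + 1 (CKO minus WT) against the mean log2(CPM + 1) over 6 libraries for the 12155 genes tested (grey), with 8 of the 9 genes (red diamonds) and 48 other genes of the epithelial lists (green circles). Slurp1 (3.98), Klk10 (3.93) and Sbsn (3.78) lie at the upper edge at 3 different levels, and Krt10 (0.41) lies within the bulk.

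Levels of different genes were compared as CPM per kb of annotated exon. In WT, Klk10 was highest at 19.1 ± 1.87 CPM per kb (SD, n = 3), followed by Krt10 at 13.5 ± 5.27 CPM per kb, a gap close to the SD of Krt10. The other 7 genes had 0.123 to 1.97 CPM per kb. In CKO, Klk10 had 342 ± 227 CPM per kb and rank 231 of 15212 genes, against rank 2262 in WT. Krt10 (17.3 ± 3.16) and Sbsn (15.9 ± 9.95 CPM per kb) followed and did not differ beyond their spread. Krt18, Slurp1, Krt17 and Krt19 lay at 8.94 ± 10.1, 8.13 ± 3.53, 7.84 ± 2.88 and 6.65 ± 2.70 CPM per kb, again within their spread of each other, and Sfn lay at 3.25 ± 3.50 CPM per kb. The CKO means of Klk10, Krt18 and Sfn were raised by CKO 2. For Krt18 it had 29.6 CPM, against 5.50 and 3.47 CPM in CKO 1 and CKO 3. Klk10 made up 34.8% to 52.4% of the summed CPM of the 9 genes in WT and 61.8% to 84.6% in CKO.

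The keratin family as a whole was sparse and uneven. The table has rows for 19 keratin genes, 10 of type I and 9 of type II, with 519 reads in all 6 libraries. Type I keratins held 450 of these reads, 260 of them from Krt10, and type II keratins 69. Without Krt10, type I reads numbered 8, 18 and 4 in WT 1, WT 2 and WT 3 and 42, 92 and 26 in CKO 1, CKO 2 and CKO 3. Type II reads numbered 13, 11 and 6 in WT and 9, 21 and 9 in CKO, which overlapped. The type I reads without Krt10 came mostly from Krt17, Krt18 and Krt19, which belong to the chosen genes, so nothing about the family is read from them. The other 6 type I genes had 2, 2 and 0 reads in WT and 5, 2 and 1 in CKO. The type II reads came mainly from Krt7, with 31 reads, and Krt87, with 21 reads, and their sum joins opposite directions. Krt7 had 5, 2 and 0 reads in WT and 6, 13 and 5 in CKO, and Krt87 had 6, 7 and 3 in WT and 1, 3 and 1 in CKO. In CPM each CKO library lay above each WT library for Krt7 and below for Krt87, and neither was called (log2 differences 1.54 and -1.19, limma's adjusted p = 0.173 and 0.182). Krt8, the usual partner of Krt18, had 1 read, and Krt5, Krt14 and Krt6a have no row in the table used here.

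**Figure D3:**
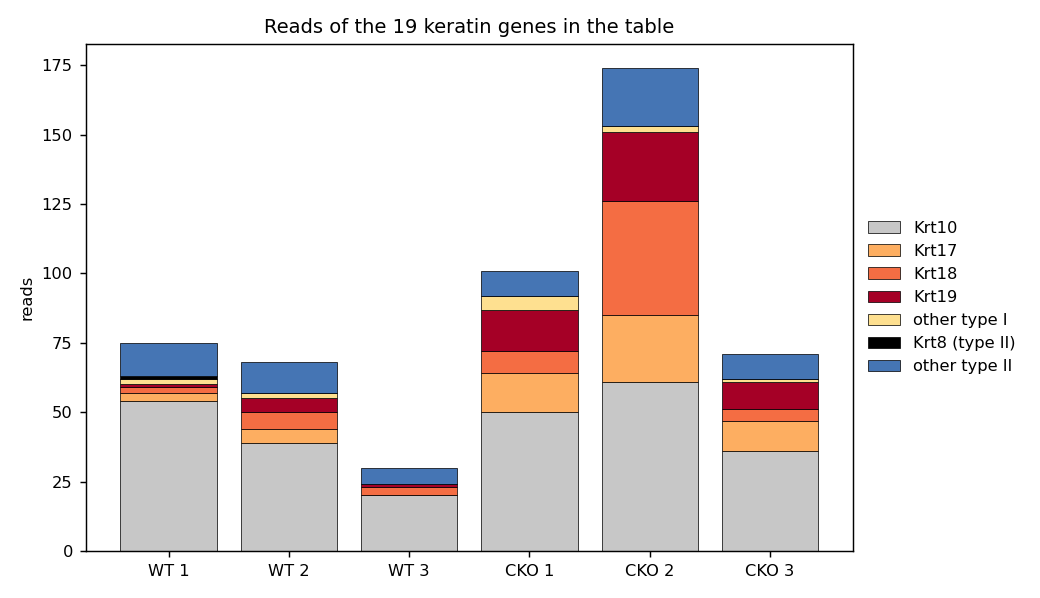
Reads of the 19 keratin genes in each library, stacked by gene or type. Krt10 holds most of the reads in WT, and Krt17, Krt18 and Krt19 together hold 37, 90 and 25 reads in CKO 1, CKO 2 and CKO 3 against 6, 16 and 4 in WT 1, WT 2 and WT 3.

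Within CKO the genes split by their level in CKO 2. Relative to CKO 1 and CKO 3 together, CKO 2 had 0.210 times the level of Sbsn (95% counting interval 0.130 to 0.324) and 0.464 times that of Slurp1 (0.265 to 0.775). It had 2.86 times the level of Klk10 (2.61 to 3.14), 6.02 times that of Sfn (2.11 to 21.0) and 6.43 times that of Krt18 (3.32 to 13.4). Krt19 had 1.88 times the level (1.04 to 3.42). Krt17 (1.81, 0.988 to 3.30) and Krt10 (1.34, 0.946 to 1.88) had intervals that include 1. Some markers of other cells were also low in CKO 2. Fibroblast and perichondrium markers summed to 2836, 1443 and 2785 CPM in CKO 1, CKO 2 and CKO 3, and tendon and synovium markers to 448, 248 and 455 CPM. Chondrocyte markers went both ways, with Cnmd at 0.578 (0.545 to 0.613) and Col11a2 at 2.51 times (2.08 to 3.03) the level of CKO 1 and CKO 3. Some osteoblast markers were low in CKO 2 as well. Ibsp, a bone matrix sialoprotein, had 708, 83.0 and 808 CPM in CKO 1, CKO 2 and CKO 3, and Bglap2, an osteocalcin gene, had 289.5, 35.4 and 257 CPM. Col1a1 (0.941 times the level of CKO 1 and CKO 3, 0.823 to 1.08) and Sp7 (1.03, 0.312 to 3.03) had intervals that include 1. The 8 osteoblast markers summed to 487, 544 and 708 CPM in WT 1, WT 2 and WT 3 and to 1316, 375 and 1408 CPM in CKO 1, CKO 2 and CKO 3, with Col1a1 the most abundant over the 6 libraries and Ibsp in CKO 1 and CKO 3. Limma called 0 of the 7 tested in either direction (2 higher and 1 lower at an unadjusted p under 0.05), edgeR 0 of 4 and DESeq2 0 of 5 with an adjusted p. Whether the makeup of the dissected tissue had a part in the low Sbsn and Slurp1 of CKO 2 was not tested.

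**Figure D4:**
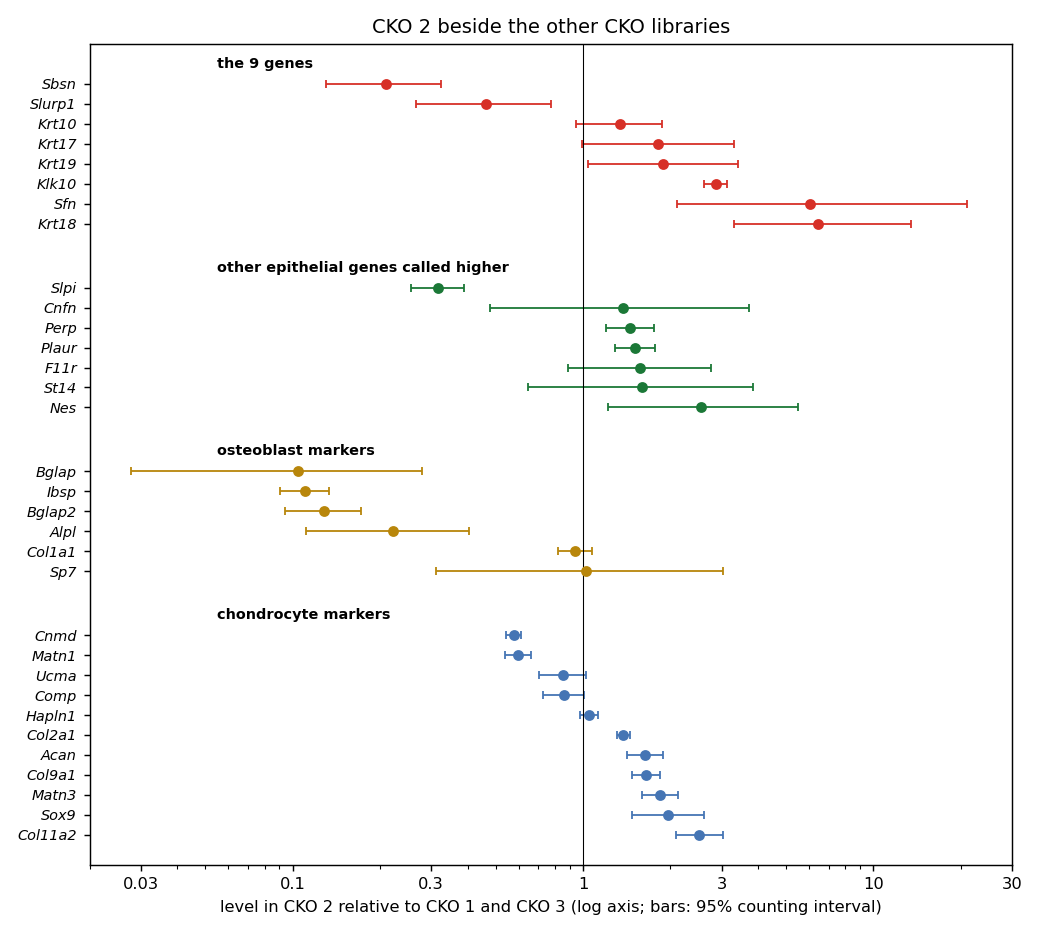
Level in CKO 2 relative to CKO 1 and CKO 3 together (log axis, bars give the 95% counting interval). Shown are 8 of the 9 genes, 7 other genes of the epithelial lists called higher, and osteoblast and chondrocyte markers. Sbsn (0.210) and Slurp1 (0.464) lie on the low side with Slpi, Ibsp and Bglap2, and Klk10 (2.86), Sfn (6.02) and Krt18 (6.43) on the high side.

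Other genes were taken from 11 lists with 168 genes, of which 107 have a row and 48 were tested. Of these lists, 3 are family lists not limited to epithelia, namely 14-3-3 proteins, Ly6 proteins and intermediate filaments other than keratins. Limma called 7 of the 48 higher and 0 lower, against 3.18% higher and 2.60% lower of all genes tested. Without the 3 family lists limma called 5 of 29 tested genes higher and 0 lower, and edgeR 3 of 14 higher and 0 lower. Of the 7, Cnfn, St14 and Nes, with WT means of 0, 0.532 and 0.773 CPM, passed the filter of 1 CPM through their CKO libraries. With no filter 7 of 107 list genes were called higher, against 389 of all 15803 genes. At an unadjusted p under 0.05, 18 were higher and 1 was lower, against 11.2% and 10.1% of all genes tested. EdgeR called 5 higher and 0 lower of 30 list genes tested, and DESeq2 6 higher and 0 lower of 31 with an adjusted p. Over all genes edgeR called 374 higher of 7704 tested and DESeq2 called 344 higher. The most abundant genes of a list are those with the highest mean CPM over the 6 libraries, WT and CKO together. The median log2 difference of the 48 was 0.58, also with Cnfn at its bound, and that of all genes tested 0.013. The count of 7 was 2 without WT 1, 3 without WT 2, 4 without CKO 1 and 3 without CKO 3.

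Limma called 2 of 6 tested junction genes higher, and 5 of the 6 had a positive log2 difference. Perp, a desmosomal protein and p53 family target, had 13.0, 18.8 and 8.45 CPM in WT 1, WT 2 and WT 3 and 97.0, 145 and 104 CPM in CKO 1, CKO 2 and CKO 3, each CKO library above each WT library (log2 difference 3.05, standard error 0.29, limma's adjusted p = 6.54e-04). F11r, the junctional adhesion molecule A gene, rose from 10 reads in WT to 55 in CKO (log2 difference 2.02, limma's adjusted p = 0.0124) and lost the call without WT 1 (adjusted p = 0.0572) and without CKO 3 (0.0522). Jup, a component of desmosomes and adherens junctions and second in abundance over the 6 libraries though below F11r in CKO, had a log2 difference of -0.04 (limma's adjusted p = 0.969). Among 5 tested proteases and inhibitors, the inhibitor Slpi rose from 37.7, 25.5 and 51.5 CPM in WT 1, WT 2 and WT 3 to 238, 76.5 and 246 CPM in CKO 1, CKO 2 and CKO 3 (log2 difference 2.14, limma's adjusted p = 0.0173). Like Sbsn, Slpi was lowest in CKO 2 within CKO. St14, the matriptase gene, had 2 reads in WT and 24 in CKO, a ratio of 11.7 (95% counting interval 2.91 to 102) and limma's adjusted p = 0.0250. Slpi and St14 each lost the call without WT 1, WT 2, CKO 1 or CKO 3, at adjusted p by limma of 0.0696 to 0.0928 for Slpi and 0.0601 to 0.10 for St14, and St14 also with a pseudocount of 0.1. St14 had too few reads for edgeR, and DESeq2 gave it no adjusted p. Spint2, second in abundance, was not called (log2 difference 0.21).

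Limma called 1 of 5 tested genes of epidermal differentiation higher, Cnfn, a cornified envelope gene with 0 reads in WT and 19 in CKO. It was at least 2.07-fold higher against a floor of 3 reads per library (limma's adjusted p = 0.0126), and lost the call without WT 1 (adjusted p = 0.0528), WT 2 (0.0546) or CKO 3 (0.0638). It had too few reads for edgeR, and DESeq2 gave it no adjusted p. The most abundant gene of the list was Cdsn, the corneodesmosin gene, with 986, 1040.1 and 325 CPM in WT 1, WT 2 and WT 3 and 565, 46.9 and 601 CPM in CKO 1, CKO 2 and CKO 3. Its libraries overlapped and it was not called (log2 difference -1.45, limma's adjusted p = 0.346), and the difference was -0.25 without CKO 2. Klk8, a kallikrein and second in abundance, had 60 reads in WT and 116 in CKO. Each CKO library of Klk8 lay above each WT library, but it was not called (log2 difference 0.89, limma's adjusted p = 0.107).

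In the family of Slurp1, limma called 1 of 7 tested Ly6 genes higher, Plaur, the urokinase receptor gene, with 27.5, 19.5 and 41.4 CPM in WT 1, WT 2 and WT 3 and 135, 208 and 139.5 CPM in CKO 1, CKO 2 and CKO 3 (log2 difference 2.44, standard error 0.28, limma's adjusted p = 0.00161). Perp and Plaur kept their calls in 13 of 13 alternatives. Ly6e and Ly6a, the most abundant Ly6 genes, were not called (log2 differences 0.14 and 0.91, limma's adjusted p = 0.685 and 0.0569), but Ly6a was called higher by edgeR (adjusted p = 0.0495) and DESeq2 (0.0157). In the family of Sfn, limma called 0 of 6 14-3-3 genes (2 higher and 1 lower at an unadjusted p under 0.05, 0 by edgeR and DESeq2, which tested the same 6), and the most abundant, Ywhae and Ywhaq, had log2 differences of 0.33 and 0.05. Of 6 tested intermediate filament genes other than keratins, Nes, the nestin gene, rose from 3 reads to 33, a ratio of 10.7 (95% counting interval 3.37 to 54.7), or 6.97 (1.95 to 37.8) without CKO 2, with limma's adjusted p = 0.0344, and lost the call in 6 of 10 alternatives, which were the replicate number as a block (adjusted p = 0.0665) and leaving out WT 1, WT 2, WT 3, CKO 1 or CKO 2 (0.0588 to 0.118). Nes had too few reads for edgeR, and DESeq2 gave it no adjusted p. Lmna and Vim, the most abundant, had log2 differences of 0.87 and 0.57 and were not called by limma. Lmna was called higher by DESeq2 (adjusted p = 0.0374) and not by edgeR (0.0979), and its log2 difference was 0.47 without CKO 2.

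The remaining lists gave 0 calls by limma. These were 8 tested genes of the basement membrane and hemidesmosome, with Cd151 and Plec most abundant (2 higher at an unadjusted p under 0.05), 3 of the transcription and splicing factors, with Klf4 and Trp63 most abundant (1 higher), 1 kallikrein, Klk9 (0 higher), and 1 simple epithelial keratin, Krt7 (1 higher). EdgeR called 0 of 4 genes of the basement membrane list and 0 of 2 factors, and DESeq2 0 of 5 and 0 of 2 with an adjusted p. No kallikrein or simple keratin of these lists had enough reads for edgeR or an adjusted p from DESeq2, Klk4 and Krt80 included. No gene of the stratified epithelial keratins had enough reads to be tested by limma, the most abundant being Krt75 and Krt16.

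**Figure D5:**
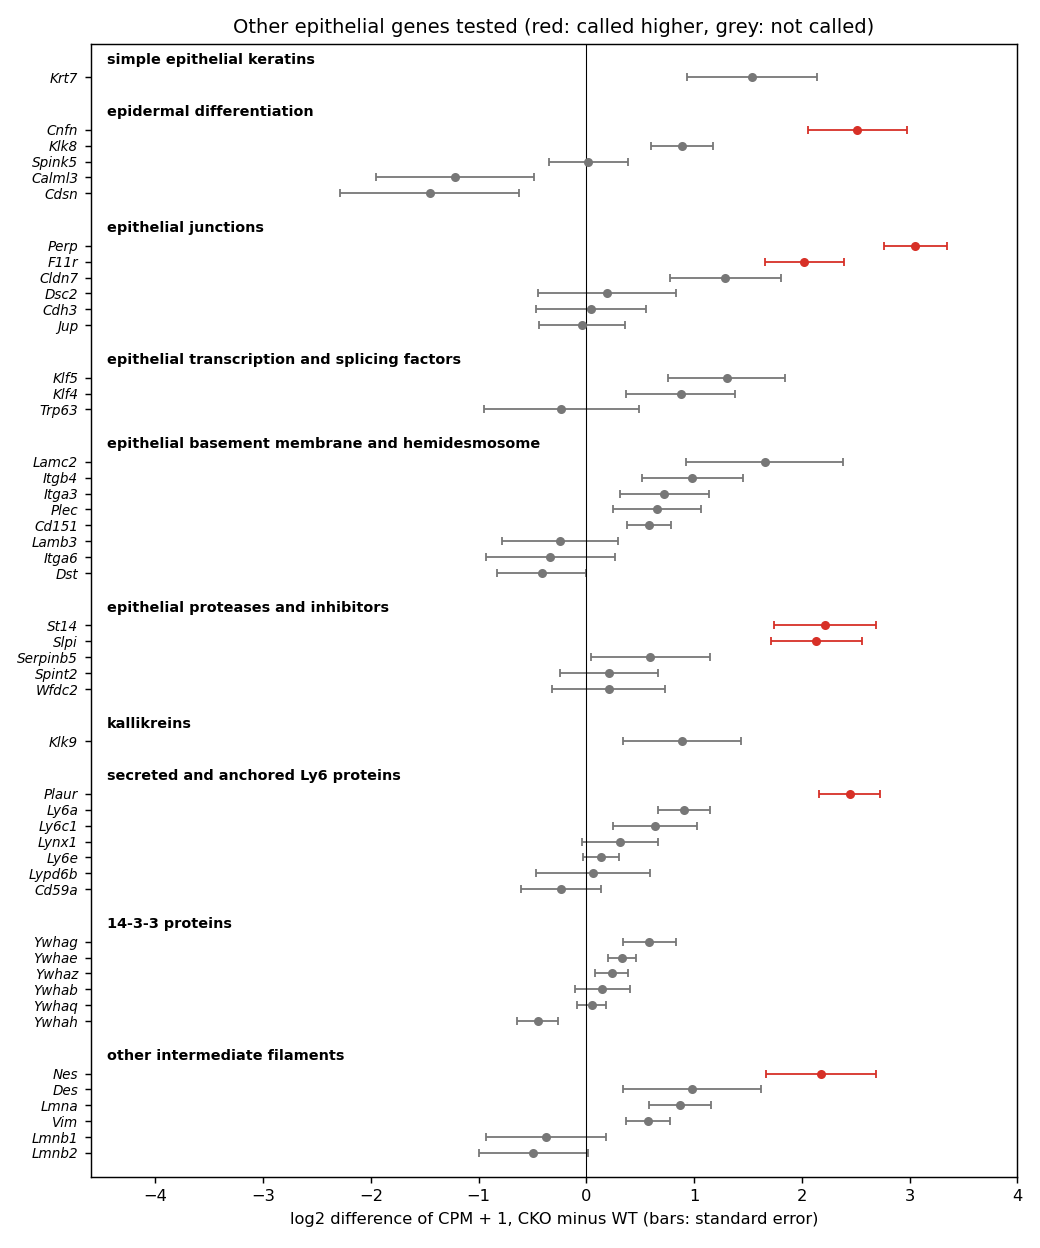
Log2 difference of CPM + 1 (CKO minus WT, bars give the standard error) for the 48 tested genes of the epithelial lists, grouped by list. The 7 genes called higher by limma (red) are Perp (3.05), Cnfn (2.51), Plaur (2.44), St14 (2.22), Nes (2.18), Slpi (2.14) and F11r (2.02). Plaur and Nes come from family lists not limited to epithelia.

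Several epidermal keratinocyte markers were at or near 0, but not Perp and Trp63. Outside this list Cdsn, of the epidermal differentiation genes above, was abundant. Of 12 epidermal keratinocyte markers 6 have a row, and Krt1, Krt15, Epcam and Lor had 3, 2, 7 and 1 reads over 6 libraries, while Krt5, Krt14, Cdh1, Dsg3, Ivl and Flg have no row in the table used here. The list summed to 18.8, 31.5 and 11.8 CPM in WT 1, WT 2 and WT 3 and to 106, 152 and 115 CPM in CKO 1, CKO 2 and CKO 3, and Perp, its most abundant gene, held most of each sum. Without Perp the sums were 5.80, 12.8 and 3.38 CPM in WT and 8.94, 6.50 and 11.3 CPM in CKO. Trp63, the next in abundance and a master regulator of stratified epithelia, had 26 reads in WT and 25 in CKO, 1 of them in CKO 2, and was not called (log2 difference -0.23, and 0.63 without CKO 2).

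Among markers of other cells, limma called 9 of 11 chondrocyte genes lower and 0 higher. Cnmd and Matn1, the most abundant, had log2 differences of -2.68 and -3.76 (adjusted p by limma = 1.39e-04 and 2.26e-05). The log2 differences of Ucma, Comp, Col11a2 and Col9a1, also called lower, were -3.33, -3.08, -2.90 and -2.50. Among the 9, Matn3 lost the call in 7 of 13 alternatives, without WT 1, WT 2, WT 3, CKO 1 or CKO 3 among them (adjusted p = 0.0571 to 0.158), and Col2a1 without WT 2, CKO 1 or CKO 3 (0.0648 to 0.0705). Of 7 fibroblast and perichondrium markers limma called 2 lower, Dcn and Col1a2, as did edgeR of the 5 it tested, and DESeq2 also Col3a1, the most abundant, at an adjusted p of 0.00829. Col1a2 lost the call without WT 2 (0.0876) or CKO 3 (0.0604). Of 5 tested tendon and synovium markers Prg4 was higher and Fmod lower, the latter not without WT 1 (adjusted p = 0.0685), WT 2 (0.10) or WT 3 (0.060), and Tnmd, second in abundance after Fmod, was not called (log2 difference -0.83). Prg4, the lubricin gene of the joint surface, had 5.80, 3.0 and 4.22 CPM in WT 1, WT 2 and WT 3 and 59.8, 30.3 and 52.0 CPM in CKO 1, CKO 2 and CKO 3 (log2 difference 3.16, limma's adjusted p = 0.00123). Of 7 tested macrophage and osteoclast markers Cd68 was higher (log2 difference 2.74, limma's adjusted p = 0.00114), while Ptprc, which marks blood cells, had 1 read and Lyz2 and Ctsk, the most abundant, were not called (log2 differences 0.26 and 0.16). Of 7 tested skeletal muscle and 3 tested nerve and glia markers limma called 0 (1 and 0 higher at an unadjusted p under 0.05). EdgeR and DESeq2 called 0 of 5 muscle markers each and gave 0 nerve and glia markers an adjusted p. Mylpf and Myl1, the most abundant of muscle, had log2 differences of -0.12 and -0.71, and Tubb3, a neuronal tubulin gene, 0.75. Endothelial markers, led by Emcn and Tek, summed to at most 3.61 CPM in any library. Whether these markers had a part in the levels of the 9 genes was not tested.

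The profiles most like those of the leading genes over 6 libraries were found by the root mean square difference of centred log2(CPM + 1) among 8689 other genes averaging 5 CPM or more. Because the leading genes were chosen for a large CKO excess, this measure favours other genes with a large excess. The nearest genes ranked from 3 (M1ap) to 13 (Perp) by log2 difference, so nothing is read from their shared rise. Nearest to Klk10 were Ccdc74a (0.53), M1ap (0.63) and Perp (0.67). Nearest to Sbsn were ONT.3874, a gene without a name (0.37), Prg4 (0.56) and Ckmt1 (0.57), and nearest to Slurp1 were ONT.3874 (0.38), Sbsn (0.59) and Prg4 (0.64). Within CKO, Ccdc74a had 15.1, 21.7 and 18.2 CPM in CKO 1, CKO 2 and CKO 3, M1ap 26.1, 87.3 and 28.6 CPM and ONT.3874 17.9, 6.50 and 19.9 CPM. M1ap was thus high and ONT.3874 low in CKO 2, while the interval of Ccdc74a for CKO 2 against CKO 1 and CKO 3 (1.31, 0.795 to 2.14) includes 1. In the order of log2 difference, M1ap (3.91) came directly after Klk10, and ONT.3874 (3.84) and Ckmt1 (3.74) stood directly before and after Sbsn. ONT.3874 had 0 reads in WT and was at least 6.37-fold higher in CKO, and Ckmt1, the mitochondrial creatine kinase gene, had 2 reads in WT and 72 in CKO, a ratio of 35.1 (95% counting interval 9.38 to 296).

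On each side of each gene the nearest coding gene with a row in the table used here was taken, which is not always the adjacent gene. Klk11 and Klk9, which flank Klk10 in the kallikrein cluster at distances of 1771 and 6480 bp, had 1 and 12 reads over 6 libraries. Dmkn, an epidermal gene 7621 bp from Sbsn, had 3 reads and Gapdhs on its other side had 1 read. Slurp2, 14729 bp from Slurp1 with 1 coding gene without a row between them, had 1 read, and Jrk on the other side, also past 1 such gene, had 31 reads in WT and 12 in CKO and was not called (log2 difference -1.17). Krt16 beside Krt17 had 4 reads and Krt15 beside Krt19 had 2, and Krt8 lies 23697 bp from Krt18. Gpn2 and Zdhhc18 beside Sfn, Eif1 near Krt17 (past 1 such gene) and Eif4b beside Krt18 were not called, with log2 differences of 0.14, 0.41, 0.02 and -0.36. Krt79 lies 56373 bp from Krt8 past 1 coding gene without a row and had 3 reads, and Krt24 lies 99991 bp from Krt10 past 4 and had 2 reads. Krtap3-2, 166458 bp from Krt10 past 6 such genes, had 0 reads in WT and 12 in CKO. It thus passed the filter of 1 CPM through its CKO libraries. Krtap3-2 was at least 1.27-fold higher against a floor of 3 reads per library (limma's adjusted p = 0.0488). This call was lost in 9 of 10 alternatives, with each of the 6 libraries left out (0.0748 to 0.146) among them.

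Shared sequence limits some of these values. Slurp1 overlaps Them6 on the opposite strand by 322 bp, and Them6 had 2 reads. Klk10, Krt8 and Krt10 overlap 2310002F09Rik, Gm36026 and Gm11940 on the opposite strand, by 4376, 271 and 558 bp. For Klk10 this is its whole span. Sbsn overlaps Tmem147os on the same strand by 4656 bp, nearly its whole span. These lengths include introns, and these 4 genes have no row in the table used here. The library kit keeps strand, but whether the counting used it is not given in the sources used here. Reads of the opposite-strand pairs therefore cannot be told apart. Strand could not separate Sbsn from Tmem147os in any case. Annotated near copies, alike at 90% of bases or more along 300 bp or more, exist for Sfn (Gm5279 and Gm7850), Krt8 (Krt8-ps), Krt17 (Krt14) and Krt18 (Gm5200), and apart from the overlap with Them6 were not found for Klk10, Sbsn, Slurp1, Krt10 and Krt19.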

How the data were processed

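Growth plate RNA was sequenced from 3 WT and 3 CKO samples with a stranded mRNA kit, and groups and replicate numbers came from the sample titles. The authors deposited CPM per gene, a read count scaled to the total of its library. The submitters' processing notes name cutadapt 2.5, HISAT2 and featureCounts 1.6.3, and the genome build and annotation are not given in the sources used here. Whole reads were recovered from the CPM for 100% of values (tolerance 0.001 reads).

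The 12155 of 15803 genes that averaged 1 CPM or more were fitted together with limma 3.58.1 in R 4.3.3 on log2(CPM + 1), with genotype as the only term, a trend in the prior variance and p-values adjusted by Benjamini-Hochberg, and were called at an adjusted p under 0.05. These p-values measure the spread between libraries. On the recovered reads edgeR 4.0.16 (quasi-likelihood) called 374 genes higher and 363 lower and DESeq2 1.42.0 called 344 and 305. The fits were tested on simulated counts. Ratios of summed reads carry exact binomial intervals at 95% (scipy 1.17.1). Positions and exon lengths came from GENCODE M21 (GRCm38) by Ensembl identifier, found for 15212 genes, near copies from blastn 2.17.0 and promoters from RefSeq.

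The 9 genes and the 11 epithelial and 12 marker lists were chosen with earlier results of these data known, and 1 marker list and 1 further marker gene are not reported here. Named genes are the 9 genes, the called (up to 6 in each direction) and the 2 most abundant genes of each list, chromosomal neighbours, and for Klk10, Sbsn and Slurp1 the 3 nearest profiles and the genes beside them in rank. Other list genes, Krt87, Ptprc, Matn3, Col2a1, Bglap2 and Sp7 among them, were chosen after their values were seen. Alternatives were the pseudocount, the filter, the replicate number as a term, each library left out, both count tests, TMM scaling and other thresholds. Their use on single list genes and neighbours, and read ratios without CKO 2, were chosen after seeing the data.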

Additional observations from a re-analysis of the deposited data

How the results depend on the processing

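With limma, 387 genes were called higher and 316 lower in CKO, and 7 genes of the epithelial lists were called higher. With each library left out in turn these counts ranged from 122 (without CKO 3) to 658 (without CKO 2), from 76 (without WT 2) to 560 (without CKO 2) and from 2 (without WT 1) to 9 (without CKO 2). At an adjusted p under 0.01 they were 114, 71 and 2, and with a log2 fold change beyond 1 and an unadjusted p under 0.05 they were 644, 620 and 11. With a mean of at least 5 CPM required, fewer genes were tested (8690, of them 31 of the epithelial lists) and 4 of these list genes were called higher. A pseudocount of 0.1, no filter, edgeR, DESeq2 and TMM scaling kept each of these counts within 1.5 times. The count of genes of the epithelial lists called lower was 0 in each alternative.

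With the replicate number as a block 225 genes were called higher, 160 lower and 6 genes of the epithelial lists higher. The numbers were not taken to pair the samples, since deviations of same-numbered libraries correlated at 0.076, -0.17 and -0.14. No library correlated best with its own number. WT 3 and CKO 2 correlated at 0.199. The paper states that littermates were compared, but the litter of each library is not given in the sources used here. Whether libraries of the 2 genotypes shared a litter was therefore not tested.

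Among the 9 genes, log2 differences with 1 library left out ranged from 3.42 to 4.18 for Klk10, from 3.37 to 4.50 for Sbsn, from 3.68 to 4.31 for Slurp1, from 0.90 to 2.35 for Sfn and from 0.57 to 1.96 for Krt18. A pseudocount of 0.1 gave 5.70 for Slurp1, 2.90 for Sfn and 3.62 for Krt17 (main values 3.98, 1.63 and 2.36). EdgeR gave 5.26 for Slurp1, and DESeq2 gave 5.51 for Slurp1, 3.31 for Sfn and 2.16 for Krt18 (main value 1.41). Depth limits Sbsn, Slurp1, Sfn, Krt8, Krt17, Krt18 and Krt19 most, which had at most 11 reads over the WT libraries.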

Other observations

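CKO 2 also stood apart in Car3 and Hba-a2. Of 7 notochord markers 3 have a row, and Car3, a carbonic anhydrase gene, had 189, 216 and 281 CPM in WT 1, WT 2 and WT 3 and 204, 2.17 and 214 CPM in CKO 1, CKO 2 and CKO 3. Cd24a, the most abundant of that list, had 225, 227 and 374 CPM in WT 1, WT 2 and WT 3 and 209, 339 and 166 CPM in CKO 1, CKO 2 and CKO 3, so CKO 2 lay within the WT range. Neither gene was called by limma (log2 differences -2.13 and -0.23, and -0.11 and -0.52 without CKO 2). The erythroid gene Hba-a2 had 28.1 CPM in CKO 2 and at most 2.60 CPM in the other 5 libraries, and Hba-a1 had at most 3.47 CPM in any library (log2 differences 1.75 and 0.57, not called). Without CKO 2 the log2 difference of Hba-a2 was 0.57. Over both lists limma called 0 genes, with 0 at an unadjusted p under 0.05. EdgeR called 0 of 2 notochord markers and tested 0 erythroid ones, and DESeq2 called 0 of 2 and 0 of 1 with an adjusted p.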
